A study of Aspergillus nidulans with 6 samples.

Results

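The transcripts of 5 genes of hyphal polarity were followed in *Aspergillus nidulans*: the formin gene *sepA* (AN6523), the Cdc42 gene *modA* (AN7487), the Rac gene *racA* (AN4743) and the cell-end marker genes *teaA* (AN4564) and *teaR* (AN4214). They were chosen by their identifiers, as genes with a known part in the growth of the hyphal tip, and all 5 were found among the 10957 genes listed in each library. The RNA came from the parent TN02A7, from WSA08 (Δ*cnaB*) and from LXA05 (Δ*cnaB*Δ*cchA*, the double deletion strain), each with 1 library without salt and 1 with 800 mM NaCl. *cnaB* encodes the regulatory subunit of calcineurin, a phosphatase that calcium activates, and *cchA* encodes the pore subunit of a calcium channel of the plasma membrane. All 3 strains carried pyrG89, nkuA::argB2 and veA1, and both TN02A7 and WSA08 also carried riboB2 and pyroA4. In the deletion strains each lost gene had been replaced by the marker pyrG, so they also differed from the parent in that marker. Spores were grown in shaken liquid minimal medium at 37 °C for 18 h, and the salt or control incubation then lasted 30 min.

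A hypha extends at its tip only, and the cell must hold that site of growth in place. In *A. nidulans*, the cell-end markers TeaA and TeaR mark the tip. TeaR is held at the tip membrane and helps to anchor TeaA, a kelch-repeat protein that the plus ends of growing microtubules bring there. TeaA interacts with the formin SepA, which builds the actin cables along which secretory vesicles reach the tip. ModA and RacA are small GTPases, with overlapping roles in setting up and keeping the growth axis.

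Each condition had 1 library, so a difference within a strain has no replicate check. For salt against control, the 3 strains served as 3 cultures of each treatment. *P* values then measure the spread of the salt difference between strains, not that of their levels. For comparisons of strain levels, the control and the salt library of a strain served as its 2 values, without a replicate culture. Those *P* values measure the spread left after strain and treatment. Levels are given as deposited, in TMM-normalized RPM: counts per 1000000 gene reads, scaled by the trimmed mean of M values. The 2 libraries of a strain were scaled together but apart from the other strains. The libraries held between 41369564 and 50006318 recovered reads. Values are not per transcript length, so the levels of different genes are not compared here. As a check of the labels, *cnaB* was at 86.2 and 73.6 in the parent libraries and was listed at 0 in the other 4, and *cchA* lay between 74.1 and 136 in the parent and Δ*cnaB* but was at 3.56 and 3.96 in the double deletion strain. The labels call the source conidia, but of the conidiation markers *brlA* was at no more than 4.68, *abaA* and *wetA* were at no more than 3.32 and 3.12, and *dewA*, which encodes a spore wall hydrophobin, was listed at 0 in all 6 libraries. *rodA* lay between 0 and 14.7, and *yA*, the laccase gene of the green spore pigment, was between 12.5 and 14.3 without salt and between 227 and 236 with it. The part of these markers in the results below was not tested. In such bulk RNA, fewer cells of a kind and less RNA per cell cannot be told apart.

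The transcripts of *modA*, *racA*, *teaA* and *teaR* fell with salt, and the *sepA* transcript was not called in either direction. Across the 3 strains, *teaR* was downregulated to 45.7% of its control level, *modA* to 53.5%, *teaA* to 54.3% and *racA* to 66.2%. These are fits over all genes with limma, on log2(value + 0.1) and with the strain as a block, and a gene was called at a Benjamini-Hochberg adjusted *P* under 0.05. Of 5 polarity genes 4 were called lower and 0 higher, where 26.6% of the 8673 genes tested were called lower. The median log2 fold change of the 5 genes was −0.88, and that of all genes tested was −0.02. In the same 4 genes every salt library lay below every control library, which held for 23.2% of all genes tested, in values scaled by strain as deposited. Scaled by library totals, the median of all genes moved to −0.28, and the same 4 genes were again called lower. Under that scaling 3081 of the 8673 genes tested were called lower, against 2306 as deposited.

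**Figure D1:**
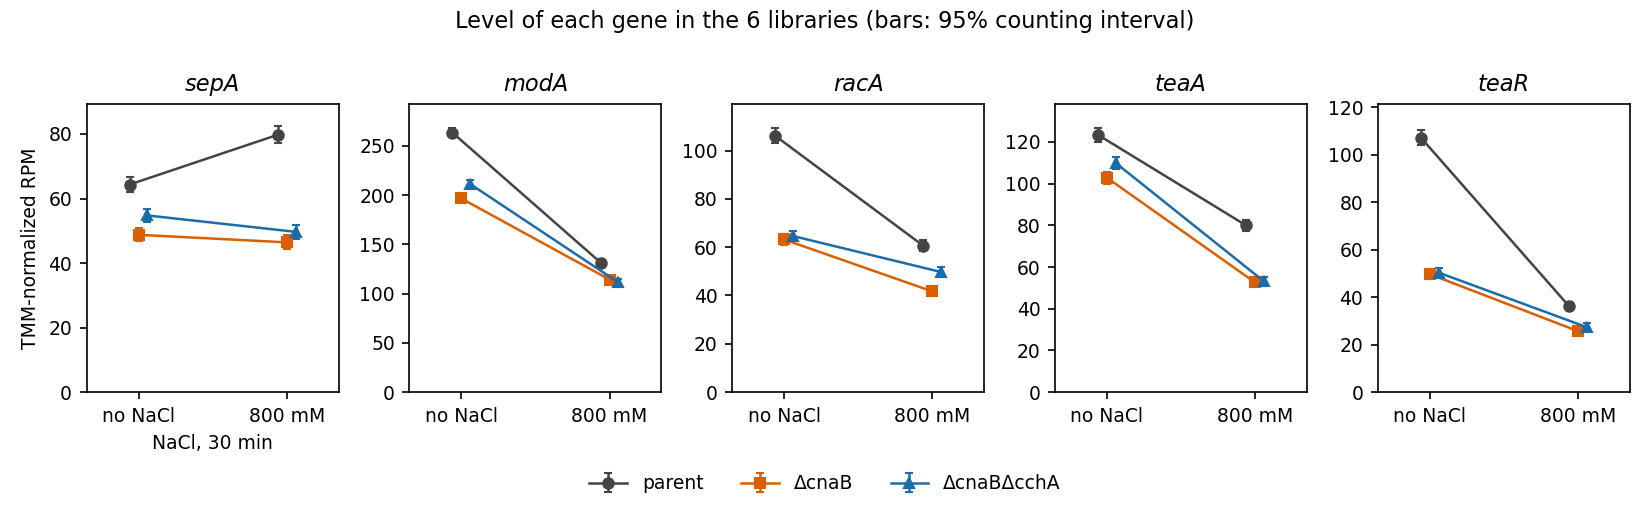
Level of the 5 polarity genes in the 6 libraries, in TMM-normalized RPM on an axis that starts at 0, without NaCl and after 30 min in 800 mM NaCl. Points are single libraries joined within a strain and bars are 95% counting intervals. The salt points of *modA*, *racA*, *teaA* and *teaR* all lie below their control points, while *sepA* runs from 64.3 up to 79.8 in the parent and stays between 46.4 and 54.7 in the deletion strains.

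The formin gene *sepA* was at 64.3, 48.7 and 54.7 without salt and at 79.8, 46.4 and 49.7 with salt, in the order parent, Δ*cnaB*, double deletion strain. The treatments overlapped, because the parent with salt held the highest value and both deletion strains with salt stood close to their controls. The log2 fold change over the 3 strains was 0.03 ± 0.14 (SE, n = 3 strains), with a 95% interval from −0.35 to 0.41 and an adjusted *P* of 0.859 (limma). The sign turned with the setting: it was −0.22 when libraries were scaled by their totals and −0.11 without the parent libraries, and neither was called.

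Of the 2 GTPase genes, the Cdc42 gene *modA* was at 263, 197 and 211 in the parent, Δ*cnaB* and the double deletion strain without salt. With salt it was at 131, 114 and 111. The lowest control was well above the highest salt library, and the salt libraries stood closer together than the controls did. The log2 fold change was −0.90 ± 0.11 (SE, n = 3), with a 95% interval from −1.19 to −0.62 and an adjusted *P* of 0.00362 (limma). It was called in all 10 alternative settings, with adjusted *P* values from 0.00196 to 0.0324.

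The Rac gene *racA* was at 106, 63.2 and 64.6 in the parent, Δ*cnaB* and double deletion controls, and at 60.5, 41.7 and 49.7 in the salt libraries. On a common scale of all 6 libraries it was at 93.3, 67.0 and 69.2 without salt and at 52.1, 44.7 and 54.1 with it, so the groups did not overlap. The log2 fold change was −0.59 ± 0.14 (SE, n = 3), with a 95% interval from −0.96 to −0.23 and an adjusted *P* of 0.0208 (limma). This call was the least stable of the 4: it was lost without the strain block (adjusted *P* 0.130), without the Δ*cnaB* libraries (0.119) and without the libraries of the double deletion strain (0.0643).

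The kelch-repeat gene *teaA* was at 123, 103 and 110 in the controls, in the same order of strains, and at 79.9, 52.6 and 53.1 with salt. Its controls were close to each other, and the parent with salt stood above both deletion strains with salt. The log2 fold change was −0.88 ± 0.14 (SE, n = 3), with a 95% interval from −1.24 to −0.52 and an adjusted *P* of 0.00667 (limma). The adjusted *P* rose to 0.0522 without the Δ*cnaB* libraries and to 0.0519 without the libraries of the double deletion strain, so the call was lost by a narrow margin with either strain left out.

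The membrane anchor gene *teaR* had the largest fold change of the 5 genes over the 3 strains, but without the parent libraries it was at −0.91 and *teaA* at −1.01. It was at 107 in the parent control and at 49.7 and 50.3 in the Δ*cnaB* and double deletion controls. With salt it was at 36.2, 25.7 and 27.3. The parent control thus stood apart from the other controls, whereas the salt libraries were close together. The log2 fold change was −1.13 ± 0.18 (SE, n = 3), with a 95% interval from −1.62 to −0.64 and an adjusted *P* of 0.0078 (limma). It was called in all 10 alternative settings, with adjusted *P* values from 0.00396 to 0.0444. Across all genes tested, the count of genes called lower with salt was 2306, but 1249 without the Δ*cnaB* libraries and 1139 without the libraries of the double deletion strain.

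Within each strain the size of the response differed from gene to gene, and a limit of 1 on the log2 difference separated few of them. In the parent, 2 of 5 polarity genes were lower by more than 1, *modA* at −1.002 and *teaR* at −1.56, where 19.3% of 8757 genes were. In Δ*cnaB*, 0 of 5 passed the limit, where 19% of 8830 genes did. *teaA* at −0.97 and *teaR* at −0.95 stood just short of it there. In the double deletion strain, *teaA* at −1.05 was the single gene past the limit, where 18.8% of 8856 genes were. When libraries were scaled by their totals, 3 of 5 passed the limit in each strain. *racA* at −1.03 joined the other 2 in the parent. *modA*, *teaA* and *teaR* passed in Δ*cnaB* at −1.09, −1.27 and −1.26. *modA* and *teaR* joined *teaA* in the double deletion strain at −1.16 and −1.11. That scaling also raised the counts of all genes lower by more than 1. They went from 1688 to 2169 (parent), from 1674 to 2356 (Δ*cnaB*) and from 1668 to 2186 (double deletion strain). With a pseudocount of 1 in place of 0.1, *modA* in the parent no longer passed the limit, while the values of *teaR* in the parent and of *teaA* in the double deletion strain passed it in every alternative run.

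The strains ordered the 5 genes in different ways. *teaR* and *racA* had their largest difference in the parent, where *racA* was at −0.81 against −0.60 in Δ*cnaB* and −0.38 in the double deletion strain. *teaA* had its smallest difference in the parent, at −0.63. *modA* had the smallest spread between strains, at −1.002, −0.78 and −0.92. *sepA* was at 0.31 in the parent, with a 95% interval from 0.24 to 0.38, at −0.07 in Δ*cnaB*, with an interval from −0.16 to 0.02, and at −0.14 in the double deletion strain, with an interval from −0.22 to −0.06. These intervals are exact (Clopper-Pearson) and cover counting error only. The recovered reads outnumber the raw reads of the study, so the intervals are too narrow. Over the 5 genes the median difference was −0.81, −0.78 and −0.88 for the parent, Δ*cnaB* and the double deletion strain, and over all genes it was −0.02, −0.00 and −0.01.

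**Figure D2:**
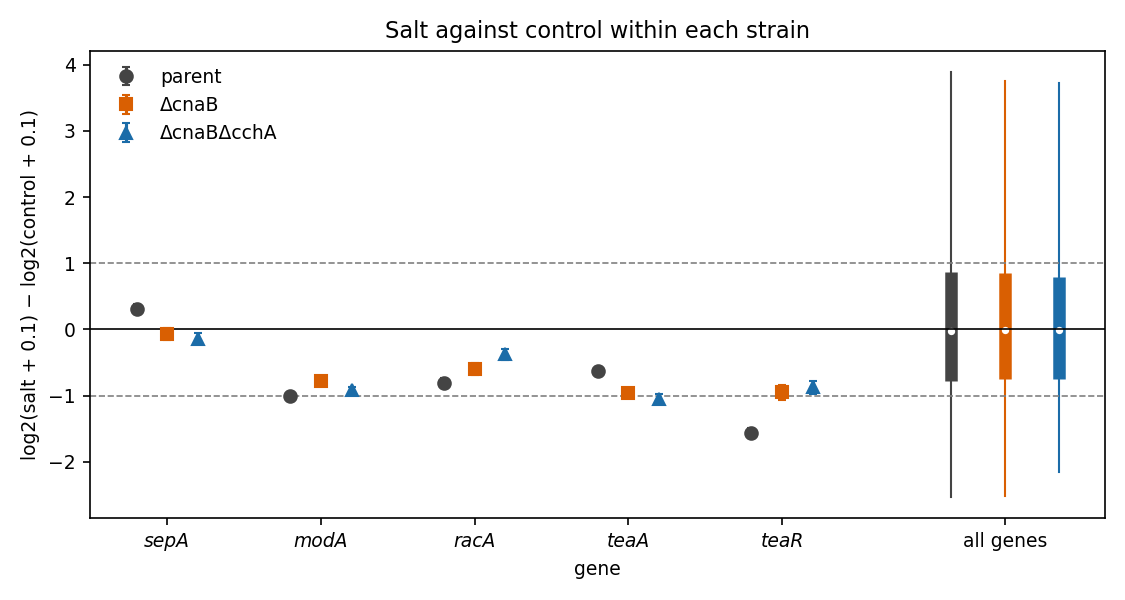
Difference of log2(value + 0.1) between the salt and the control library of each strain for the 5 polarity genes, with 95% counting intervals. At the right, white points give the median of all genes, thick bars their middle 50% and thin lines the range from their 5th to their 95th percentile, and dashed lines mark the limit of 1. Only the points of *modA* and *teaR* in the parent and of *teaA* in the double deletion strain lie below −1, and *teaR* in the parent, at −1.56, is the lowest point.

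Ratios between genes of one library do not depend on how libraries are scaled, and only their change is read here. The ratio of *teaA* to *sepA* changed by similar amounts in the 3 strains: without salt it was 1.92, 2.11 and 2.01 in the parent, Δ*cnaB* and the double deletion strain, and with salt it was 1.00, 1.13 and 1.07. On the log2 scale these changes were −0.94, −0.90 and −0.91. *teaA* was thus lower relative to *sepA* by a similar amount in each strain. Its own difference was smallest in the parent, at −0.63 against −0.97 and −1.05, where *sepA* was at 0.31 against −0.07 and −0.14.

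For the other genes, the ratio to *sepA* changed most in the parent. These ratios share *sepA*, which was higher with salt in the parent alone, so each parent change holds that rise too. The ratio of *modA* to *sepA* changed by −1.31, −0.71 and −0.78 on the log2 scale, in the order parent, Δ*cnaB*, double deletion strain. For *racA* the changes were −1.12, −0.53 and −0.24, and for *teaR* they were −1.88, −0.88 and −0.74. The pair of cell-end markers was the clearest case of a ratio set apart in 1 library. The ratio of *teaA* to *teaR* was 1.15 in the parent control but 2.07 and 2.18 in the Δ*cnaB* and double deletion controls, and with salt it was 2.21, 2.05 and 1.94. The ratio of *modA* to *racA* changed by −0.19 and −0.18 in the parent and Δ*cnaB* and by −0.55 in the double deletion strain. With 1 library per condition these ratios are a description without a test.

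**Figure D3:**
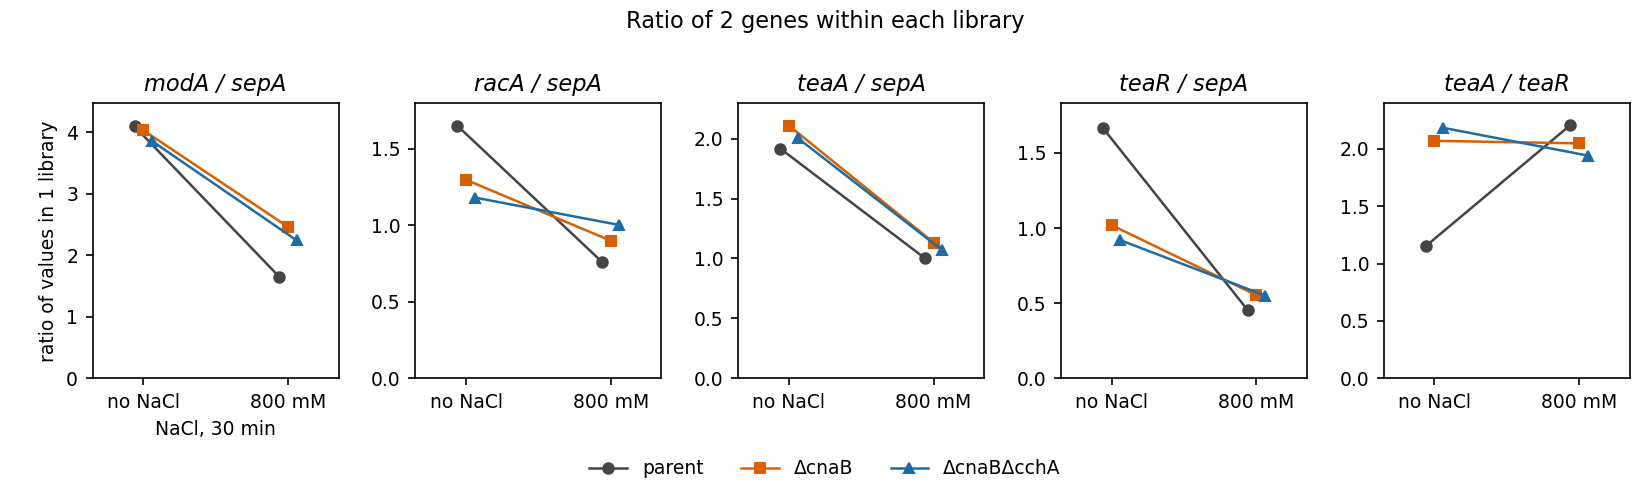
Ratio of the values of 2 genes within each library, on axes that start at 0, without NaCl and after 30 min in 800 mM NaCl, with 1 point per library and lines joining the libraries of a strain. The 3 lines of *teaA* over *sepA* run nearly parallel, whereas in the panel of *teaA* over *teaR* the parent control, at 1.15, lies below the other 5 libraries, which lie between 1.94 and 2.21.

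The levels of the deletion strains were compared with the parent after scaling all 6 libraries together, because the deposited values were normalized by strain. With the treatment in the fit, 0 of 5 polarity genes were called in either direction, where 10.4% of the 8673 genes tested were called. *teaR* came nearest, at −0.47 ± 0.21 (SE; mean of the deletion strains minus the parent, log2), with a 95% interval from −1.01 to 0.07 and an adjusted *P* of 0.183 (limma). *racA* was at −0.27 (adjusted *P* 0.271), *sepA* at −0.22 (0.330), *teaA* at −0.10 (0.617) and *modA* at 0.01 (0.975). The intervals do not exclude differences of this size or larger. As deposited, the median of all genes moved to −0.27 and *teaR* to −0.77 (adjusted *P* 0.0536, limma), still not called. The count of all genes called was then 1870. On the common scale that count was 905. It went to 161 without the Δ*cnaB* libraries and to 181 without the libraries of the double deletion strain.

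The strains stood apart in *teaR* without salt more than with it. On the common scale its control level was 94.2 for the parent, 52.7 for Δ*cnaB* and 53.9 for the double deletion strain, that is, 55.9% and 57.2% of the parent. With salt it was at 31.2, 27.5 and 29.8, and the strains stood close together. Of all genes, 9.32% had a lower difference than *teaR* between the Δ*cnaB* and the parent control, and 13.7% did between the double deletion and the parent control. *racA* was likewise higher in the parent control, at 93.3 against 67.0 and 69.2, whereas with salt it was at 52.1, 44.7 and 54.1. *sepA* showed the opposite arrangement, with similar controls at 56.6, 51.7 and 58.6 and with salt 68.7 in the parent against 49.8 and 54.1 in the deletion strains.

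The added loss of *cchA* was examined by comparing the double deletion strain with Δ*cnaB*, each with its control and its salt library. The genotypes list riboB2 and pyroA4 for WSA08 but not for LXA05, so the strains also differ in those markers. Their part was not tested. 0 of 5 polarity genes were called, and 0% of the 8673 genes tested were called by limma, although 321 genes had an unadjusted *P* under 0.05. The log2 differences of the 5 genes lay between 0.05 for *modA* and 0.16 for *racA*, each with an adjusted *P* of 1.00. The intervals were wide, from −0.29 to 0.59 for *sepA*, from −0.31 to 0.41 for *modA*, from −0.30 to 0.63 for *racA*, from −0.34 to 0.49 for *teaA* and from −0.55 to 0.70 for *teaR*.

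The salt response itself was compared between the deletion strains and the parent as an interaction, again on the common scale. 0 of 5 polarity genes were called, where 0.0461% of all genes tested were called, which is 4 genes. 2246 genes had an unadjusted *P* under 0.05. *teaR* had the largest difference of the 5 genes: its response was higher in the deletion strains, that is, a smaller fall, by 0.70 ± 0.17 (SE, log2), with a 95% interval from 0.21 to 1.19, an unadjusted *P* of 0.017 and an adjusted *P* of 0.121 (limma). *racA* was at 0.37 (adjusted *P* 0.312) and *modA* at 0.20 (0.487). *sepA* and *teaA* had the opposite sign, at −0.36 (0.264) and −0.33 (0.283). The response of the parent rests on 1 pair of libraries and was assumed to vary like the others.

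Other genes of polar growth were looked up by symbol in the RefSeq gene table, in lists drawn up by role. Of 148 symbols looked up, 31 named a gene that was tested. In the first lists these were 19 of 135 symbols. In the added lists, which were taken from the symbols of the table itself, they were 12 of 13. Of all genes tested, 26.6% were called lower and 28.7% higher. Many genes of polar growth carry no symbol in the table, so these counts describe the named genes only.

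Among GTPases and their regulators, 1 of 4 was called. *rasA*, which encodes a Ras GTPase, was downregulated with a log2 fold change of −0.96 ± 0.15 (SE, adjusted *P* 0.00732, limma). The other genes of this list were not called. *pakA*, a p21-activated kinase gene, was at 0.31 ± 0.11 (adjusted *P* 0.0713, limma). *cdcA* at −0.65 ± 0.23 (0.072) and *rasB* at −0.52 ± 0.19 (0.0754) had the opposite sign, and the median of the list was −0.58. The list of polarisome and landmark genes matched a single gene, *bud4*, whose yeast counterpart works with septins at the bud neck. It was lower by −0.75 ± 0.16 (0.018).

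Of 10 genes in the list of kinesins and microtubule tip factors, 3 were called lower and 1 higher, with a median of −0.26, and of 3 genes in the added list of microtubule ends and dynein, 2 were called lower. The lower genes were *nudC* (−1.66 ± 0.15, adjusted *P* 0.00193), *eb1* (−1.22 ± 0.13, 0.0027), which encodes a protein of microtubule plus ends, *nudA* (−1.04 ± 0.14, 0.0046), the heavy chain of dynein, *nudG* (−0.95 ± 0.13, 0.00454), a dynein light chain, and *kipA* (−0.57 ± 0.15, 0.032). KipA is the kinesin that helps to place TeaA at the tip. *kipA* was at 32.2, 19.9 and 29.2 in the controls of the parent, Δ*cnaB* and the double deletion strain and at 21.0, 15.5 and 17.5 with salt. It was lower with salt in each of the 3 strains. *uncA*, a vesicle-carrying kinesin, was higher by 0.45 ± 0.13 (0.0397).

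Of 3 genes in the list of actin and myosins, 2 were called higher, and of 4 genes in the added list of actin and endocytic patches, 1 was called higher and 1 lower. *sac6*, which encodes the actin-bundling protein fimbrin, was upregulated by 1.99 ± 0.11 (adjusted *P* 0.000878), from 188, 226 and 177 in the controls of the parent, Δ*cnaB* and the double deletion strain to 747, 828 and 768 with salt. *pan1*, a gene of endocytic coat assembly in yeast, was higher by 1.13 ± 0.20 (0.0094), and *act1*, the actin gene, by 0.38 ± 0.11 (0.0428). *pfy1*, which encodes profilin, a partner of formins in actin assembly, was lower by −0.49 ± 0.10 (0.0174). Of vesicle traffic genes only *arfA*, a GTPase gene of the Golgi, was matched, and it was lower by −0.63 ± 0.11 (0.0098). No gene was matched for the kinases and swollen-cell genes.

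In a further added list, the septin genes *aspA* to *aspE*, whose products form rings and filaments at septa and tips, were called lower in 5 of 5 cases, with log2 fold changes from −1.83 (*aspD*) to −1.05 (*aspE*) and a median of −1.57. In alternative settings *bud4*, *kipA*, *uncA*, *act1*, *arfA*, *pfy1* and *aspB* missed the threshold in 1 to 5 of 10 cases. Each gene called higher or lower in these lists kept its sign in all of them.

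**Figure D4:**
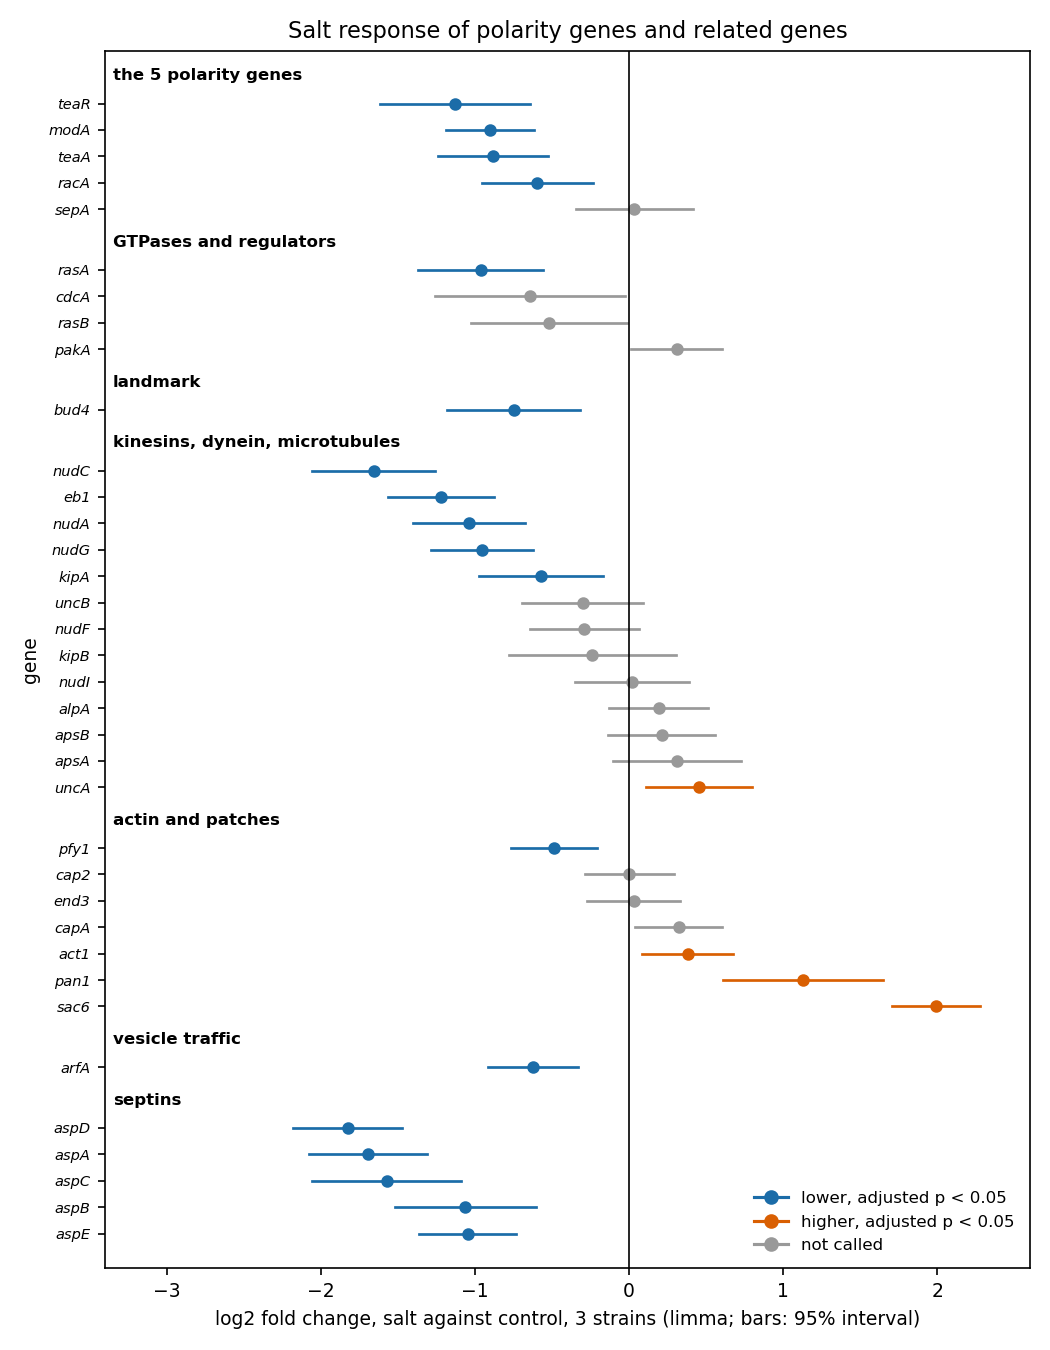
Log2 fold change with salt over the 3 strains, with its 95% interval from limma, for the 5 polarity genes and the 31 related genes by role. Blue marks genes called lower, orange genes called higher and grey genes not called. The septins lie between −1.83 and −1.05, at or below most of the polarity genes, whereas *sac6* and *pan1* lie above 1.

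The 5 polarity genes did not share one pattern across the libraries. The distance between 2 genes was taken as the root mean square difference of their log2 values, each centred on its mean over the 6 libraries. *modA* and *teaA* were the closest pair, at 0.14 (Pearson's r 0.96), and *sepA* was the farthest from the rest, at 0.36 to 0.65. The highest correlation was that of *racA* and *teaR* (r 0.98), at a distance of 0.30. These values rest on 6 libraries that share the salt contrast and the scaling by strain, and they are a description only. The 2 nearest genes to each polarity gene were then searched among the 7866 genes that reached 1 in all 6 libraries. They were picked for the smallest distance, so their likeness to the polarity gene is fixed by the search and is no result. The nearest to *sepA* were AN7544 (0.03) and AN2965 (0.03), to *modA* AN10301 (0.06) and the tryptophan synthase gene *trpB* (AN6231, 0.06), to *racA* AN4425 (0.05) and *atmA* (AN0038, 0.07), a kinase gene of the DNA damage response, to *teaA* AN5162 (0.06) and *cox10* (AN1722, 0.06), and to *teaR* AN8811 (0.08) and AN10922 (0.08). AN7544 was at 149, 116 and 131 in the controls and 183, 109 and 120 with salt in the parent, Δ*cnaB* and the double deletion strain, and so showed the same rise in the parent alone as *sepA*. AN8811 was at 118, 61.0 and 57.0 in the controls and at 43.3, 30.8 and 28.9 with salt, with the parent control set apart as for *teaR*.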

How the data were processed

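Per the labels and the study's methods, the authors removed reads with adapters or low-quality bases, mapped the rest with TopHat v2.0.12 to assembly ASM14920v1, counted them with RSEM and normalized the counts by TMM before DEGseq. The deposited signal values are TMM-normalized RPM, although the file headers call them read counts. Values under 1 are listed as 0, and 477 to 557 genes per library have no value and were treated as 0. All nonzero values were whole multiples (tolerance 0.01) of the value of 1 read, between 0.0184 and 0.0264, from which reads were recovered. The smallest listed values stand for 38 to 55 reads, so no test on counts was run.

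Differences within strains used log2(value + 0.1) and genes at 1 or more in either library. limma 3.58.1 (R 4.3.3; eBayes with trend, two-sided) used genes at 1 or more in 3 libraries. Strain levels and the interaction used TMM over all 6 libraries, coded in Python 3.11.15. The steps were tested on simulated counts with known changes. Those counts were not scaled by strain, so this checks the code only.

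The named genes are the 5 polarity genes, the deleted genes, the 3 called genes with the largest fold change in each related list, and the 2 nearest genes of each polarity gene. Other list genes named were chosen after their values were seen. The genes and lists were chosen with earlier results of these data known. The septin, endocytic and microtubule-end lists were added from the symbols of the table, and 1 further list is not reported here. List counts are given list by list. Of the 10957 identifiers, 10037 matched the RefSeq table of ASM1142v1, in which 780 genes have a symbol. AN6523 has none there, and AN7487 is listed as cdc42. 5 symbols that stand for another gene or for *modA* were set aside. No coordinates are given, as the assemblies differ. Alternatives were other pseudocounts, filters, scalings and fold limits, no strain block, and each strain left out.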

Additional observations from a re-analysis of the deposited data

Results flagged for a closer look

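The salt difference of *sepA* was positive in the parent and below 0 in both deletion strains, at 0.31 in the parent against −0.07 in Δ*cnaB* and −0.14 in the double deletion strain, each from 1 pair of libraries. The counting interval for Δ*cnaB*, from −0.16 to 0.02, includes 0, and that for the double deletion strain, from −0.22 to −0.06, does not. Both cover counting error only, so neither interval decides whether expression fell. On the common scale of all 6 libraries, the difference between the deletion strains and the parent was −0.36 (log2). Its adjusted *P* was 0.264 in the limma interaction, so it did not pass the threshold. In values as deposited, the scale of the strain differences above, it was −0.42 (adjusted *P* 0.221, limma). When libraries were scaled by their totals, the values were 0.09 for the parent, −0.38 for Δ*cnaB* and −0.37 for the double deletion strain, and the difference was −0.47, with an adjusted *P* of 0.201.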

How the results depend on the processing

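Within the strains, the counts of genes lower with salt were 608 for the parent, 599 for Δ*cnaB* and 508 for the double deletion strain at a fold limit of 2, and 2918, 2850 and 2918 at a limit of 0.5. Over the strains, the count of genes called lower was 1256 without the strain block and 1139 to 2656 with a strain left out. *modA* and *teaR* were called in every alternative run. *racA* stayed at −0.59 without the block (adjusted *P* 0.130, limma) and ranged from −0.70 to −0.49 with a strain left out, and *teaA* from −1.01 to −0.80. *sepA* was −0.22 by library totals and −0.11 to 0.12 with a strain left out. Against the parent, 1870 genes were called as deposited, 1776 by library totals and 161 to 181 with a strain left out. *modA* was then at −0.30 as deposited and by library totals, −0.0025 by median of ratios and −0.019 to 0.033 with a deletion strain left out. Between the deletion strains, 1 gene was called with a pseudocount of 1, with a filter of 5 and without the parent. For the interaction, 430 genes were called with a pseudocount of 1, 10 by library totals, 0 with any nonzero value and 749 with a filter of 5; none of the 5 genes was among them. The causes were not tested. With a strain left out, a test still used the spread of the strains that remained. The planned edgeR quasi-likelihood alternative was not run, because values under 1 are listed as 0. The interaction could not be fitted with a deletion strain left out. The limit of listing, not depth, limits genes of low expression, and all 5 genes lie far above it.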
